A study of Mus musculus with 6 samples.

Results

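The genes described here were 10 chaperones and folding enzymes of the endoplasmic reticulum (ER), namely Hspa5, Hsp90b1, Dnajb11, Dnajc3, Sdf2l1, Creld2, Manf, Pdia4, Pdia6 and Fkbp11, out of 32285 genes in the count matrices. They were matched by symbol and followed in 5 classes of marrow cells. They had been chosen by their fold changes between the groups in granulocyte-monocyte progenitors (GMPs), so their GMP values are given as a description with no test. Tests were made in 4 other classes, from which every cell counted as a GMP had been taken out, although those cells came from the same mice.

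Single-cell RNA-Seq was performed on c-Kit-enriched bone marrow of BALB/c mice aged 10 weeks. One group had no tumor (NTB). The other 2 carried 4T1, a mammary carcinoma line syngeneic to BALB/c that was implanted orthotopically, and received either vehicle or brequinar (BRQ), an inhibitor of the pyrimidine synthesis enzyme DHODH. The study's general methods give 10 mg/kg of BRQ once a day from when tumors could be measured, and no number of days was found for these mice in the sources used here. Each of 3 pools held 1 mouse of each group, told apart by hashtag antibodies and captured together, so that each group had 3 mice, of 9 altogether. No mouse carried an engineered allele according to the labels.

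The ER folds secreted and membrane proteins, which in GMPs and their progeny include the proteases and peroxidase of the granules. BiP, the product of Hspa5, is the Hsp70 chaperone of the ER, and its cofactors and the disulfide isomerases work around it. When unfolded proteins accumulate, the sensors IRE1, PERK and ATF6 start the unfolded protein response (UPR), whose factors ATF6 and XBP1 bind the ER stress element (ERSE) in the promoters of many of these genes together with NF-Y, which occupies the CCAAT end.

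The ERSE was looked for because it is the sequence through which ER stress is known to switch on many ER chaperone genes. It was spelled as CCAAT, 9 free bases and CCACG, and searched on both strands from 250 bases before to 50 bases after the RefSeq transcript starts on GRCm38.p6. Of the 10 genes, 9 had such a window, all but Manf. The letters were present in 5 of the 9 genes and in 0.137% of the 27025 genes with a window. With the last base free, a search that includes every ERSE, 6 of 9 genes and 0.429% of all genes held a match. ERSE-II, spelled ATTGGNCCACG, was present in Dnajb11 alone among the 9 and in 0.0444% of all genes. The matches have the fixed bases in capitals and are written 5′ to 3′ along the strand on which the motif reads forward.
Hspa5, ERSE: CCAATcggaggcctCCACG
Hsp90b1, first ERSE: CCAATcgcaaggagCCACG
Hsp90b1, second ERSE: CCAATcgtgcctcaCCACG
Dnajc3, ERSE: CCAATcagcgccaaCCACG
Creld2, ERSE: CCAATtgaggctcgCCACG
Pdia6, ERSE: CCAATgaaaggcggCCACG
Pdia4, ERSE but for the last base: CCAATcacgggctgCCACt
Dnajb11, ERSE-II: ATTGGcCCACG

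The Hspa5 match lay at chr2:34772025-34772043 on the plus strand and began 65 bases before the transcript start. Those of Dnajc3 (chr14:118937827-118937845), Pdia6 (chr12:17266491-17266509) and Dnajb11 (chr16:22857852-22857862) were also on the plus strand, the last of them starting 8 bases inside the transcript. Hsp90b1 held a pair of matches in opposite orientations, at chr10:86705638-86705656 on the minus strand, the strand of the gene, and at chr10:86705533-86705551 on the plus strand. The Creld2 match (chr15:88819520-88819538) read on the minus strand and the Pdia4 match (chr6:47813602-47813620) on the plus strand, in both cases against the direction of the gene. Neither spelling of the ERSE nor ERSE-II was present in the windows of Sdf2l1 and Fkbp11. The UPRE core TGACGTGG, present in 0.714% of all genes, and TGATGNAA, a spelling of the ATF4 element present in 4.51%, were in none of the 10 windows of the 9 genes, of which Fkbp11 had 2. The genes themselves lay at chr2:34772090-34776529 (Hspa5), chr10:86690841-86705444 (Hsp90b1), chr16:22857845-22879634 (Dnajb11), chr14:118937932-118981702 (Dnajc3), chr16:17130138-17132383 (Sdf2l1), chr15:88819646-88826681 (Creld2), chr9:106888753-106891938 (Manf), chr6:47796141-47813512 (Pdia4), chr12:17266589-17284785 (Pdia6) and chr15:98724368-98728198 (Fkbp11) on GRCm38.p6.

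**Figure D1:**
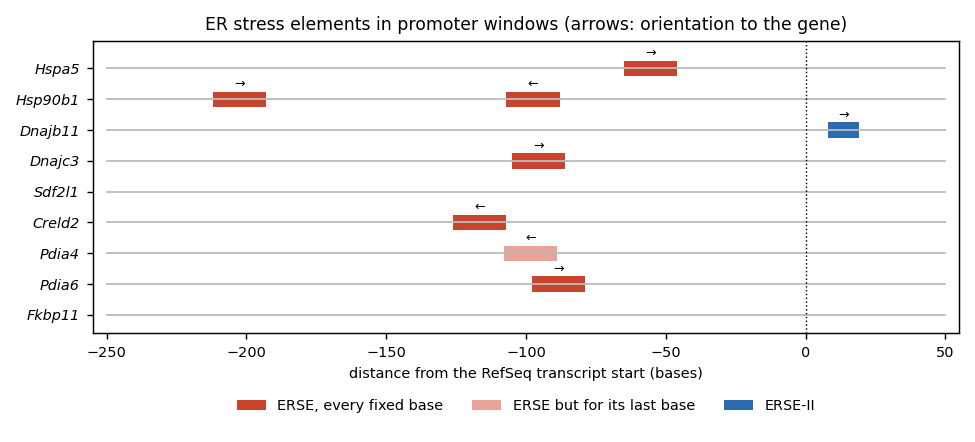
Positions of ER stress elements in the promoter windows of 9 genes. The horizontal axis is the distance in bases from the RefSeq transcript start, bars are matches and arrows give their orientation to the gene. 7 of the 8 matches lie before the start, between 212 and 65 bases upstream at their first base.

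The 3 pools held 11441 to 14297 barcodes and 100700982 to 135564079 unique molecular identifiers (UMIs, counted molecules), and pairs of pools shared 38 to 48 barcodes. Of the barcodes, 33.1% to 52.2% had no hashtag called and 6.21% to 17.6% were hashtag doublets, and neither kind was assigned to a mouse. Ms4a3 set the GMPs apart, which were all cells in which ln(1 + its UMIs per 10000) exceeded 3. Pools 1, 2 and 3, the order in which mice are listed throughout, had 88, 135 and 177 NTB GMPs, 1017, 95 and 289 vehicle GMPs, and 806, 656 and 653 BRQ GMPs. The other classes were clusters named by their markers: monocyte-like cells (42 to 346 per mouse), HSC/MPP-like cells (hematopoietic stem cells and multipotent progenitors, 10 to 210), neutrophil-like cells (86 to 809) and erythroid-like cells (9 to 120). Counts were summed per mouse and class, and mice with fewer than 20 cells of a class were left out, which removed the vehicle mouse of pool 2 from the HSC/MPP-like class and left 1 vehicle and 2 NTB mice in the erythroid-like class. The class markers were present where they defined the class: the 9 monocyte markers summed to 1625 to 2525 CPM (UMIs scaled to a common library size) in monocyte-like cells and 55.4 to 152.5 CPM in GMPs. The 7 GMP markers summed to 32460 to 43810 CPM in GMPs and still to 15920 to 21870 CPM in monocyte-like cells.

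The classes differed in the level of these genes. In NTB mice the mean of each was highest in GMPs or monocyte-like cells and lowest in neutrophil-like cells. The range of neutrophil-like cells over mice overlapped with those of HSC/MPP-like and erythroid-like cells for Dnajb11, and with that of erythroid-like cells for Dnajc3. Their UMIs together made up 0.242% to 0.283% of all UMIs in GMPs and 0.254% to 0.306% in monocyte-like cells, against 0.0945% to 0.107% in HSC/MPP-like cells, 0.0977% to 0.103% in erythroid-like cells and 0.0437% to 0.0475% in neutrophil-like cells. Hspa5, Hsp90b1, Dnajb11, Pdia4 and Pdia6 were highest in monocyte-like cells, and Dnajc3, Sdf2l1, Creld2, Manf and Fkbp11 in GMPs. The ranges over mice of those top 2 classes overlapped for Hspa5, Hsp90b1, Dnajb11, Dnajc3, Creld2 and Fkbp11 and were apart for Sdf2l1, Manf, Pdia4 and Pdia6. The order of HSC/MPP-like and erythroid-like cells varied from gene to gene, and their ranges overlapped for Hsp90b1, Dnajb11, Creld2, Manf and Pdia4.

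**Figure D2:**
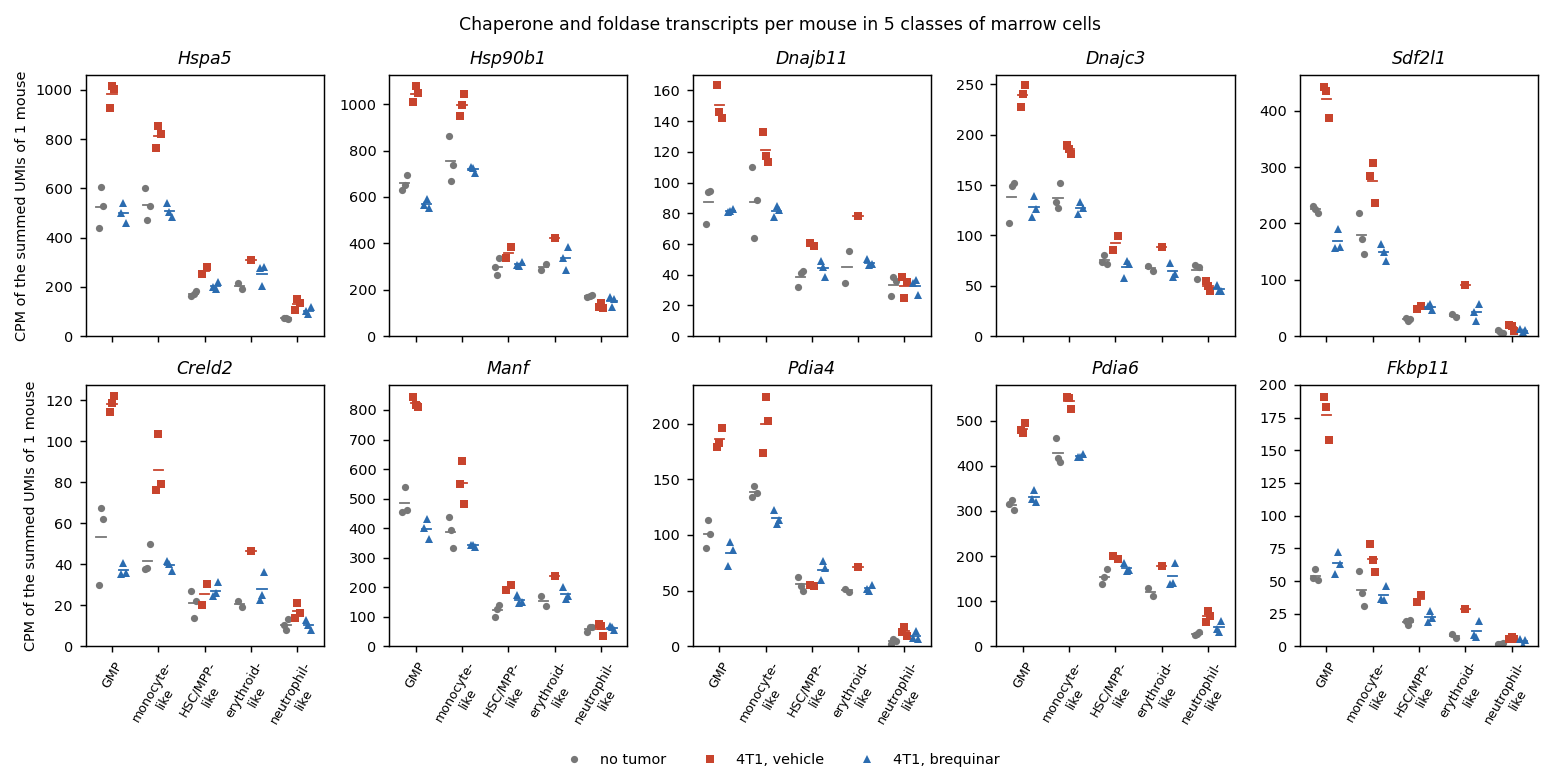
CPM of each gene in the summed UMIs of each mouse (points) and the mean of each group (lines) in 5 cell classes. The vertical axes start at 0 and differ between genes. The vehicle points stand above the NTB and BRQ points in GMPs for all 10 genes, and all groups are lowest in neutrophil-like cells.

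In GMPs, the class on which the genes had been chosen, vehicle mice stood above NTB mice and BRQ mice below vehicle mice for all 10 genes. The share of all UMIs that came from the 10 genes was 0.242%, 0.283% and 0.267% in NTB mice, 0.458%, 0.469% and 0.461% in vehicle mice and 0.231%, 0.253% and 0.225% in BRQ mice. The median log2 fold change was 0.85 for vehicle against NTB and -1.20 for BRQ against vehicle, beside -0.01 and 0.00 over all genes tested. For BRQ against NTB it was -0.33, with 9 genes lower in BRQ and Fkbp11 at 0.07 ± 0.14. The BRQ and NTB mice overlapped for Hspa5, Dnajc3, Creld2, Pdia6 and Fkbp11. In plain CPM, without the TMM factor of the fit, Dnajb11 and Pdia4 overlapped as well. There the mean of Pdia6 was higher in BRQ than in NTB mice (331 CPM against 314 CPM). These 3 comparisons share groups of mice, so the values stand side by side and no test was made between them. Over all 10331 genes tested in GMPs with edgeR's quasi-likelihood test, 6.63% were called higher in vehicle than in NTB, 7.37% lower and 6.08% higher in BRQ than in vehicle, and 2.56% higher and 3.46% lower in BRQ than in NTB (Benjamini-Hochberg adjusted p under 0.05).

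The genes differed among themselves in GMPs. Fkbp11, which encodes a membrane-anchored prolyl isomerase, had the largest vehicle difference among the 10, at 1.74 ± 0.13 against NTB, and Creld2 the largest BRQ difference. Creld2 encodes an EGF-domain protein of the ER that is induced by ER stress, and its log2 fold change was 1.10 ± 0.14 for vehicle against NTB and -1.85 ± 0.12 for BRQ against vehicle. Sdf2l1, a partner of BiP and its J-protein cofactor, read 251, 233 and 219 CPM in NTB, 478, 453 and 399.6 CPM in vehicle and 149.8, 180.3 and 137 CPM in BRQ mice, so that no 2 groups overlapped. The disulfide isomerase gene Pdia4 read 95.9, 117 and 101 CPM in NTB, 193, 191 and 202 CPM in vehicle and 68.7, 88.7 and 74.8 CPM in BRQ mice. Pdia6, another disulfide isomerase gene, had the smallest differences, with 0.64 ± 0.09 for vehicle against NTB and -0.73 ± 0.08 for BRQ against vehicle. Hsp90b1, which encodes the Hsp90 of the ER, was at 683, 674 and 691 CPM in NTB, 1088, 1124 and 1078 CPM in vehicle and 539, 561 and 479.6 CPM in BRQ mice. The vehicle mice were the highest 3 mice for each of these genes.

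The GMPs of the groups were spread differently over clusters. Cluster 9 held 73, 27 and 292 BRQ GMPs but at most 8 GMPs of an NTB mouse and 11 of a vehicle mouse, too few to be fitted. In BRQ mice the 10 genes summed to 2065 to 2199 CPM in its GMPs, against 2484 to 2815 CPM in those of cluster 0 and 2108 to 2342 CPM in those of cluster 1, so that clusters 9 and 1 overlapped within the group. Within the GMPs of each of the 3 clusters that could be fitted the median of the 10 genes kept its sign. For vehicle against NTB it was 0.72 in cluster 0, 0.94 in cluster 1 and 0.40 in cluster 3, and for BRQ against vehicle -1.15, -1.17 and -1.09. For BRQ against NTB it was -0.46, -0.24 and -0.57 in clusters 0, 1 and 3, and all 10 genes were negative in each, Fkbp11 with -0.27, -0.24 and -1.4996, the last of these the lowest of the 10 in cluster 3. Cluster 3 had 2 NTB and 2 vehicle mice with enough cells. The lowest value there was that of Creld2, at -0.04 for vehicle against NTB. Summed plasma cell markers were low in GMPs in every group, at 33.1 to 62.4 CPM in NTB, 25.3 to 50.3 CPM in vehicle and 27.8 to 63.3 CPM in BRQ mice. Markers of other cells moved with the groups. The 14 neutrophil markers summed to 47540 to 50960 CPM in NTB GMPs, 34320 to 38080 CPM in vehicle and 27170 to 38500 CPM in BRQ GMPs, the 7 macrophage markers to 272 to 311 CPM, 161 to 174.5 CPM and 65.3 to 195.6 CPM, and the 11 HSC/MPP markers to 96.01 to 104 CPM, 114 to 161 CPM and 154 to 248 CPM. The 9 B cell markers were lower in vehicle (16.4 to 19.9 CPM) than in NTB (24.7 to 45.0 CPM) and BRQ GMPs (21.2 to 28.6 CPM), and the 9 monocyte markers were higher in BRQ (100.2 to 152.5 CPM) than in vehicle GMPs (55.4 to 69.5 CPM). The part of these shifts in the differences was not tested.

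**Figure D3:**
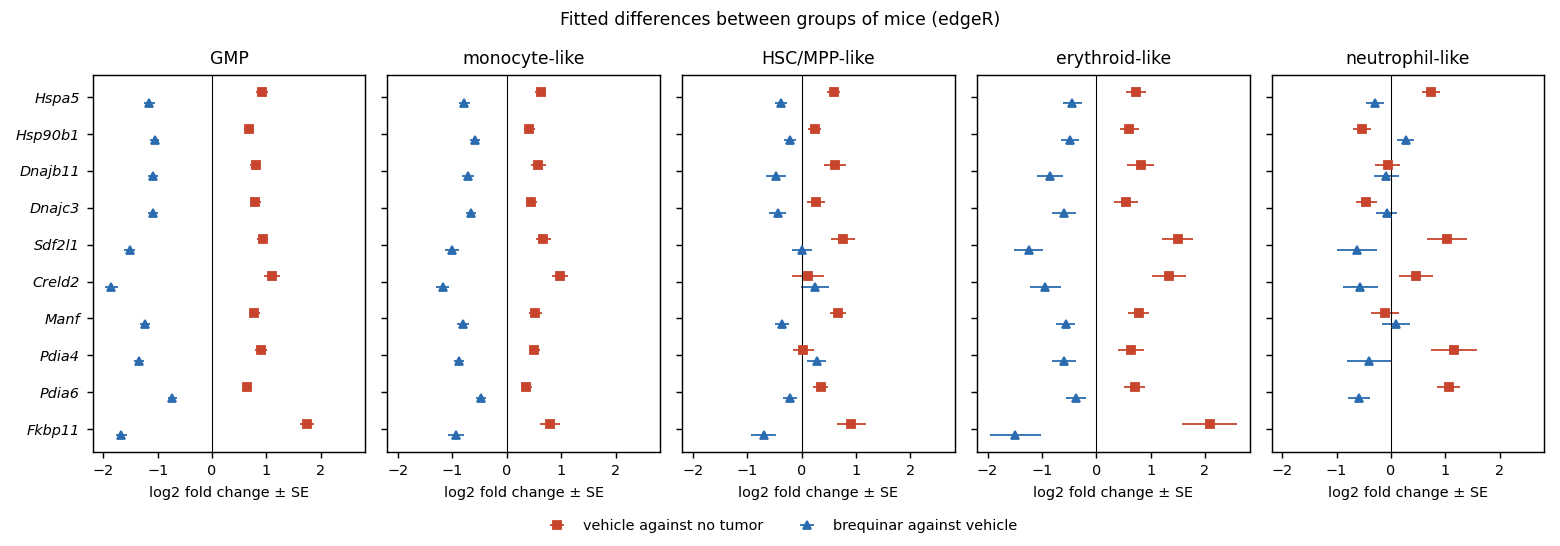
Log2 fold change with its standard error for each gene and class, for vehicle against NTB (squares) and BRQ against vehicle (triangles), from 1 edgeR fit per class. In GMPs and monocyte-like cells every square is above 0 and every triangle below 0. Fkbp11 could not be fitted in neutrophil-like cells.

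Monocyte-like cells asked whether the same genes differed in a class from which the GMPs had been removed. All 10 were called higher in vehicle than in NTB mice, where 1.64% of the 9453 genes tested were called higher, and all 10 were called lower in BRQ than in vehicle mice, where 2.84% were called lower. The median log2 fold changes were 0.55 and -0.80, beside -0.01 and 0.00 over all genes tested. Against NTB mice, BRQ mice had lower values for all 10 genes, with a median of -0.19, and 1 of them, Pdia4, passed the test, where 1.51% of genes were called lower. The sum of the GMP markers in this class was 15920 to 20830 CPM in NTB, 16640 to 19370 CPM in vehicle and 19320 to 21870 CPM in BRQ mice. BRQ and vehicle mice barely overlapped. Other marker sums were apart between groups. The 11 HSC/MPP markers summed to 248 to 341 CPM in NTB, 416 to 579.9 CPM in vehicle and 437 to 697 CPM in BRQ mice, and the 7 macrophage markers to 17.2 to 38.9 CPM, 7.38 to 12.2 CPM and 12.8 to 16.1 CPM. The 9 monocyte markers were at 1857 to 2525 CPM, 1625 to 2082 CPM and 2121 to 2334 CPM, apart between vehicle and BRQ mice. The 8 dendritic cell markers, at 5.37 to 13.25 CPM, 5.23 to 8.28 CPM and 4.08 to 5.12 CPM, were lowest in BRQ mice. The 6 lymphoid progenitor markers, at 3.01 to 9.40 CPM, 0.98 to 2.16 CPM and 0.73 to 2.31 CPM, were highest in NTB mice. The part of these markers in the differences was not tested. Fewer UMIs of a gene per cell and fewer cells that make it cannot be told apart in such sums.

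BiP and its partners were the first group. Hspa5 read 634, 486 and 528 CPM in NTB, 815, 898 and 814 CPM in vehicle and 530.1, 493 and 441 CPM in BRQ mice, and no vehicle mouse overlapped with another group. This was a log2 fold change of 0.62 ± 0.10 (SE, adjusted p = 0.00168) for vehicle against NTB and -0.79 ± 0.10 (adjusted p = 5.75e-05) for BRQ against vehicle (edgeR, Benjamini-Hochberg over all genes, as for every adjusted p here). Dnajb11 encodes a J-protein that delivers substrates to BiP, and it read 116, 65.7 and 88.3 CPM in NTB, 141, 123 and 112 CPM in vehicle and 75.9, 82.4 and 75.05 CPM in BRQ mice. The lowest vehicle value of Dnajb11 lay below the highest NTB value, while the BRQ mice stood apart from the vehicle mice. It had a log2 fold change of 0.58 ± 0.14 (SE, adjusted p = 0.0233) for vehicle against NTB and -0.72 ± 0.12 (adjusted p = 0.000573) for BRQ against vehicle. Dnajc3, a J-protein that is also known as an inhibitor of PERK, read 139.8, 131 and 152 CPM in NTB, 202, 196 and 179 CPM in vehicle and 119, 130.4 and 116 CPM in BRQ mice, with a log2 fold change of 0.45 ± 0.10 (SE, adjusted p = 0.0168) for vehicle against NTB and -0.66 ± 0.09 (adjusted p = 9.68e-05) for BRQ against vehicle. Sdf2l1 was at 230.2, 178 and 145 CPM in NTB, 303, 323 and 235 CPM in vehicle and 160.0, 146 and 121 CPM in BRQ mice, with a log2 fold change of 0.67 ± 0.14 (SE, adjusted p = 0.00856) for vehicle against NTB and -1.003 ± 0.13 (adjusted p = 3.76e-05) for BRQ against vehicle. For both of these genes the vehicle mice were above all others.

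The nucleotide exchange on BiP is slowed by Manf, a small ER protein that can also be secreted. It read 462, 406 and 331 CPM in NTB, 583, 659.7 and 478 CPM in vehicle and 336, 336 and 307 CPM in BRQ mice, with a log2 fold change of 0.53 ± 0.12 (SE, adjusted p = 0.0161) for vehicle against NTB and -0.81 ± 0.11 (adjusted p = 0.000121) for BRQ against vehicle. Hsp90b1 was at 909.5, 692 and 734 CPM in NTB, 1009, 1048 and 1039 CPM in vehicle and 713, 709 and 644 CPM in BRQ mice, and had a log2 fold change of 0.41 ± 0.10 (SE, adjusted p = 0.0264) for vehicle against NTB and -0.58 ± 0.10 (adjusted p = 0.000799) for BRQ against vehicle. The vehicle mice had the 3 highest values of both genes. Creld2 showed the largest differences in this class, as it did against vehicle in GMPs. It read 39.5, 39.4 and 49.9 CPM in NTB, 81.05, 109 and 78.7 CPM in vehicle and 40.7, 39.4 and 33.7 CPM in BRQ mice, with a log2 fold change of 0.98 ± 0.15 (SE, adjusted p = 0.000694) for vehicle against NTB and -1.18 ± 0.12 (adjusted p = 2.96e-06) for BRQ against vehicle.

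The disulfide isomerases, which form and rearrange disulfide bonds in client proteins, followed. Pdia4 read 141, 149 and 137 CPM in NTB, 185, 235 and 201 CPM in vehicle and 119.8, 107 and 104 CPM in BRQ mice, with a log2 fold change of 0.51 ± 0.11 (SE, adjusted p = 0.0102) for vehicle against NTB and -0.88 ± 0.10 (adjusted p = 5.99e-06) for BRQ against vehicle. Its value in BRQ against NTB mice was -0.37 ± 0.10 (adjusted p = 0.049, edgeR). With the pool as a block, Sdf2l1 passed the test of BRQ against NTB beside Pdia4, which made 2 genes. Over all genes the calls rose from 267 to 438 of 9453. No gene passed in that comparison when any 1 NTB mouse, any 1 BRQ mouse or the vehicle mouse of pool 2 was left out. Pdia6 was at 486, 431 and 407 CPM in NTB, 589, 578 and 522 CPM in vehicle and 409.9, 409 and 390.0 CPM in BRQ mice, with a log2 fold change of 0.36 ± 0.10 (SE, adjusted p = 0.0413) for vehicle against NTB and -0.48 ± 0.09 (adjusted p = 0.00248) for BRQ against vehicle, the smallest of the 10 in both comparisons. Fkbp11 read 60.7, 42.3 and 30.6 CPM in NTB, 83.5, 69.3 and 56.2 CPM in vehicle and 35.7, 34.6 and 41.9 CPM in BRQ mice, so that its vehicle and NTB mice overlapped. It had a log2 fold change of 0.80 ± 0.18 (SE, adjusted p = 0.0169) for vehicle against NTB and -0.94 ± 0.14 (adjusted p = 0.000298) for BRQ against vehicle.

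The smallest NTB sum of monocyte-like cells held 44 cells, from pool 1, and the smallest vehicle sum 42. Without that NTB mouse all 10 genes passed for vehicle against NTB. Without the NTB mouse of pool 2, 2 of the 10 genes passed (Hspa5 and Creld2), and 3 passed when the NTB mouse of pool 3, or the vehicle mouse of pool 1 or pool 2, was left out. Hspa5 and Creld2 were among them each time. Median UMIs per monocyte-like cell were 21234.5 to 23960 in vehicle mice against 13732 to 17462 in NTB and 15282.5 to 18738 in BRQ mice. When each cell was thinned to 3000 UMIs, 3 genes passed for vehicle against NTB (Hspa5, Manf and Fkbp11) and 8 for BRQ against vehicle, all but Pdia6 and Dnajc3. The part of depth in the differences was not tested further.

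Cell by cell, the medians and upper quartiles of the 10 genes lay higher in every vehicle mouse than in any other mouse, in both GMPs and monocyte-like cells. In monocyte-like cells thinned to 3000 UMIs, the 10 genes gave a median of 8, 8 and 7 UMIs per cell in NTB mice, 11, 12 and 11 in vehicle mice and 8, 7 and 7 in BRQ mice. The 10th percentile was 3 to 5 in NTB, 4 to 6 in vehicle and 3 to 4 in BRQ mice. In GMPs the medians were 6.5, 8 and 7 UMIs in NTB, 13 in each vehicle mouse and 6, 7 and 6 in BRQ mice. The lower quartile of every vehicle mouse in GMPs, 9 to 9.5 UMIs, was above the medians of all NTB and BRQ mice. Cells under 3000 UMIs were left out, 3 of 401 vehicle, 6 of 260 NTB and 6 of 1011 BRQ monocyte-like cells, and 23 of 1401, 23 of 400 and 28 of 2115 GMPs. The unthinned shares are those given above.

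**Figure D4:**
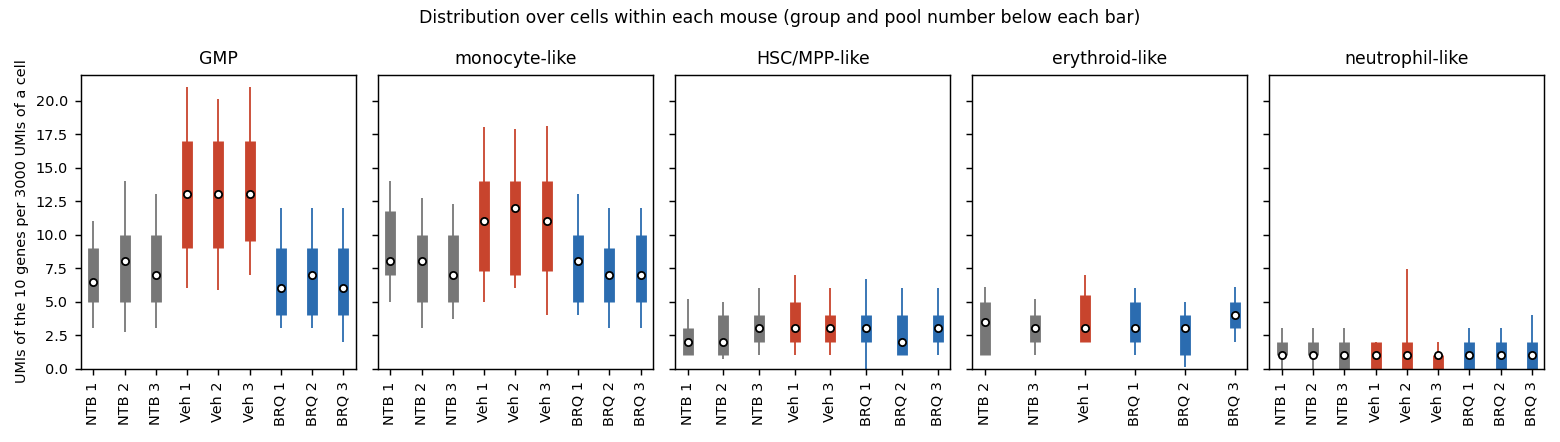
UMIs of the 10 genes per cell after each cell was thinned to 3000 UMIs, by class and mouse. White circles are medians, thick bars run from the lower to the upper quartile and thin lines from the 10th to the 90th percentile of cells. In GMPs and monocyte-like cells the medians and upper quartiles of the vehicle mice stand above those of all other mice, with medians of 13 and of 11 to 12.

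HSC/MPP-like cells were the stem and multipotent progenitor class, a cluster led by markers such as Hlf and Mecom. All 10 genes were at a positive log2 fold change in vehicle against NTB mice, with a median of 0.47, and 2 passed the test, where 0.751% of the 9981 genes tested were called higher. These were Hspa5 and Manf. Hspa5 read 169.9, 174 and 183 CPM in NTB, 258 and 280.1 CPM in vehicle and 204, 191 and 217 CPM in BRQ mice, with a log2 fold change of 0.59 ± 0.13 (adjusted p = 0.00666, edgeR). Manf read 103, 129 and 137 CPM in NTB, 196 and 208 CPM in vehicle and 177, 145 and 147 CPM in BRQ mice, with 0.67 ± 0.14 (adjusted p = 0.00666, edgeR). In both genes the 2 vehicle mice were above the 3 NTB mice. The summed GMP markers in this class were 1705 to 2471 CPM in NTB, 3142 to 3185 CPM in vehicle and 2732 to 2985 CPM in BRQ mice, the HSC/MPP markers were at 2567 to 2854 CPM, 3242 to 3265 CPM and 2974 to 3605 CPM, and the 8 dendritic cell markers at 91.6 to 118.5 CPM, 38.97 to 59.4 CPM and 37.1 to 77.1 CPM. The 10 erythroid markers summed to 238.6 to 332.1 CPM in NTB, 166.5 to 197 CPM in vehicle and 135 to 215.6 CPM in BRQ mice, and the 9 monocyte markers to 112.1 to 198.2 CPM, 212.2 to 222.5 CPM and 136 to 212.3 CPM. Their part in these differences was not tested.

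For BRQ against vehicle 0 of the 10 genes passed in HSC/MPP-like cells with edgeR or DESeq2, where 0.0301% of genes were called lower. Before adjustment 5 of the 10, and 454 of the 9981 genes tested, had a p under 0.05 (edgeR). Of the 10 genes 7 had a negative value, and their median was -0.29 over all 10. Sdf2l1 was called higher in BRQ than in NTB mice, where 0.441% of genes were called higher. It read 33.3, 27.8 and 29.9 CPM in NTB, 50.04 and 54.3 CPM in vehicle and 54.4, 56.03 and 44.7 CPM in BRQ mice, a log2 fold change of 0.77 ± 0.19 (adjusted p = 0.0323, edgeR). Against NTB mice, vehicle mice had 0.76 ± 0.22 for this gene (adjusted p = 0.0789, edgeR). Hspa5 and Manf no longer passed for vehicle against NTB without the vehicle mouse of pool 1, which left 50 vehicle cells from 1 mouse and 0 genes called. The Sdf2l1 call was lost with DESeq2, and when any 1 NTB mouse, or the BRQ mouse of pool 1 or 2, was left out.

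Neutrophil-like cells had the lowest levels of all 10 genes, and Fkbp11 had too few counts there to pass edgeR's filter, which all 10 passed in the other classes. For vehicle against NTB, 5 of the 9 genes fitted had positive and 4 negative values. Hspa5 and Pdia6 were called higher, where 16.5% of the 7754 genes tested were called higher, and Hsp90b1 was called lower, where 13.3% were called lower. Hspa5 read 81.7, 78.2 and 68.9 CPM in NTB, 112, 143 and 128 CPM in vehicle and 102, 92.7 and 112 CPM in BRQ mice, with 0.74 ± 0.17 for vehicle against NTB (adjusted p = 0.00544, edgeR). Pdia6 read 27.2, 30.1 and 31.2 CPM in NTB, 55.6, 73.3 and 65.1 CPM in vehicle and 39.2, 33.8 and 52.6 CPM in BRQ mice, with 1.06 ± 0.21 (adjusted p = 0.00215, edgeR). Hsp90b1 went the other way, at 189, 182 and 176 CPM in NTB, 129.9, 133 and 116 CPM in vehicle and 170.4, 130.4 and 152 CPM in BRQ mice, with -0.53 ± 0.16 (adjusted p = 0.0257, edgeR). Vehicle and NTB mice did not overlap for any of these 3 genes, and how many of all genes were apart in this way was not counted. In either direction 2310 of the 7754 genes were called, so 3 of 9 is near the share over all genes. With the pool as a block 5 genes passed, Pdia4 (higher) and Dnajc3 (lower) besides Hspa5, Pdia6 and Hsp90b1. Over all genes the calls rose to 2878 of 7754.

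The neutrophil-like cells of the groups came from different clusters. Cluster 2, led by Il1b and Cxcr2, held 272 of 403, 104 of 123 and 395 of 452 vehicle cells but 6 of 86, 33 of 362 and 34 of 809 NTB cells, and clusters 4 and 6, which express granule genes such as Ltf and Lcn2, held the rest. Of the 9 genes, 6 could be fitted within cluster 2 alone and 6 within cluster 6 alone, with 2 NTB mice in the former and 2 vehicle mice in the latter. None of them passed for vehicle against NTB, where 14 of 3943 genes were called in cluster 2 and 104 of 5029 in cluster 6. Hspa5 was at 1.01 and Pdia6 at 1.55 in cluster 2, and at 0.30 and 0.14 in cluster 6. Hsp90b1 was at 0.14 and -0.10 in the 2 clusters and Dnajc3 at 1.37 and 0.12. The marker sums moved with this shift. The 14 neutrophil markers summed to 392500 to 423500 CPM in NTB, 262200 to 340900 CPM in vehicle and 251900 to 341900 CPM in BRQ mice. The 11 HSC/MPP markers, which include Ifitm1 and Ly6a, summed to 50.3 to 215 CPM, 2770 to 6378 CPM and 831 to 2162 CPM, and the 9 monocyte markers to 25.01 to 31.2 CPM, 91.9 to 182 CPM and 58.7 to 138 CPM. Their part in the differences was not tested. Median UMIs per neutrophil-like cell were 1569 to 1858 in vehicle, 2594 to 3069 in BRQ and 5416.5 to 6305.5 in NTB mice. With edgeR or DESeq2, 0 of the 9 genes passed for BRQ against vehicle, where 0.0258% of genes were called lower. Before adjustment 1 of the 9, and 1030 of the 7754 genes tested, had a p under 0.05 (edgeR). The count of genes passing was also 0 for BRQ against NTB, where 11.8% of genes were called higher. Before adjustment 3 of the 9 had a p under 0.05 (edgeR), as did 2374 of the 7754 genes tested, a share near that of the 9. With the pool as a block, Hspa5 (higher) and Dnajc3 (lower) passed for BRQ against NTB, where the calls over all genes rose from 1222 to 1969 of 7754.

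Erythroid-like cells had 1 vehicle mouse with 46 cells, so the values of this class set that mouse beside the others. In CPM with the TMM factor it read above every NTB and BRQ mouse for all 10 genes, and in plain CPM for all but Pdia6 (177.9 CPM against 184.7 CPM in the BRQ mouse of pool 3). The median log2 fold change was 0.76 for vehicle against NTB, and ran from 0.35 to 0.86 over 16 alternatives. Sdf2l1 read 41.2 and 32.6 CPM in NTB mice, 99.6 CPM in the vehicle mouse and 44.5, 27.1 and 54.6 CPM in BRQ mice. The fit took the spread of the vehicle group to equal that of the other groups, since 1 mouse gives no spread of its own, and its calls therefore hold for that mouse and not for vehicle mice at large. Under this assumption 4 of the 10 genes were called with edgeR (0 with DESeq2), where 1.31% of the 8492 genes tested were called higher. These were Sdf2l1 (1.498 ± 0.28), Creld2 (1.33), Manf (0.78) and Fkbp11 (2.09). That vehicle mouse also had more of other cells' markers: its 7 GMP markers summed to 7229 CPM against 2134 to 2873 CPM in NTB mice, and its 14 neutrophil markers to 26130 CPM against 5779 to 14350 CPM, and their part in the differences was not tested. With cells marked by Scrublet as likely doublets left out, none of the 10 passed and Manf was at -0.16. Without the NTB mouse of pool 3 none passed either, and 7 did without the BRQ mouse of pool 3. With the pool as a block 1 gene passed, Creld2. For BRQ against vehicle all 10 values were negative, with a median of -0.59 that ran from -0.75 to -0.24 over 16 alternatives. With edgeR or DESeq2 0 passed, where 0.118% of genes were called lower, but with the block Sdf2l1 passed. For BRQ against NTB the median was 0.24 and 0 passed with either tool, where 0.683% of genes were called higher.

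Whether the group differences were unequal among the 4 classes outside GMPs was tested within mice, with an interaction term over 32 sums, of which the erythroid-like vehicle sum was 1 mouse. For vehicle against NTB, 2 of the 10 genes were called unequal, a count near the 16.4% of the 11464 genes tested that were. These were Hsp90b1 (adjusted p = 0.000168, edgeR) and Dnajc3 (adjusted p = 0.0104, edgeR). The log2 fold change of Hsp90b1 was 0.41 in monocyte-like, 0.24 in HSC/MPP-like, 0.61 in erythroid-like and -0.53 in neutrophil-like cells. For Dnajc3 the values in the same order were 0.45, 0.27, 0.55 and -0.45. In both genes the neutrophil-like value was the negative one in the class as a whole, while within cluster 2 alone neither was negative (0.14 and 1.37). For BRQ against vehicle, Hsp90b1 was called unequal, where 0.462% of genes were (adjusted p = 0.0311, edgeR), with -0.58, -0.21, -0.48 and 0.27 in the same order. Within neutrophil-like cluster 2 alone, which held most of the vehicle cells of that class, Hsp90b1 was at -0.63 for BRQ against vehicle, and within cluster 6 alone at 0.26, and it did not pass in either. The unequal call was lost when the NTB or vehicle mouse of pool 2 or 3, or the BRQ mouse of pool 1, was left out. Without the BRQ mouse of pool 3, 5 genes were called unequal in that comparison. Pdia4 just missed the threshold, at -0.88 in monocyte-like and 0.28 in HSC/MPP-like cells (adjusted p = 0.0525, edgeR). The other 7 genes were not called unequal in either comparison. With the erythroid-like cells left out, an alternative chosen after seeing the data, Hsp90b1 and Dnajc3 were again the 2 genes called for vehicle against NTB, where 18% of genes were, and Creld2 and Pdia4 were called beside Hsp90b1 for BRQ against vehicle, where 0.539% were.

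Other genes of the folding pathway were grouped in lists: other ER folding genes, ER-associated degradation (which exports misfolded proteins for destruction by the proteasome), UPR sensors and regulators, cytosolic chaperones and mitochondrial chaperones. The lists were chosen with earlier results of these data known. Their GMP calls come from the same fits on which the 10 genes were chosen, so they are a description and give no independent support. In GMPs, 10 of 36 other ER folding genes were called higher in vehicle than in NTB mice and 1, Tapbp, lower, where 6.63% and 4.68% of all genes were, and 18 were called lower in BRQ than in vehicle mice, where 7.37% were. Hyou1, an Hsp110-type exchange factor of BiP, had 0.73 ± 0.12 (adjusted p = 0.000498, edgeR) and -1.12 ± 0.10 (adjusted p = 7.14e-08, edgeR) in these comparisons. Calr, a lectin chaperone, had 0.70 ± 0.09 (adjusted p = 1.75e-05, edgeR) and -1.03 ± 0.09 (adjusted p = 2.51e-08, edgeR). The medians of the list were 0.29 and -0.30, beside -0.01 and 0.00 over all genes tested. With 1 mouse left out, 8 to 14 genes of the list were called in the first comparison and 11 to 18 in the other, and with cells thinned to 3000 UMIs 6 and 8.

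Of 24 degradation genes in GMPs, 6 were called higher in vehicle than in NTB and 13 were called lower in BRQ than in vehicle, with medians of 0.24 and -0.30. Leaving out 1 mouse gave 2 to 8 and 10 to 13 called genes, and thinning 0 and 6. Edem2, which trims mannose from misfolded glycoproteins, was among both, at 0.39 ± 0.12 (adjusted p = 0.0422, edgeR) and -0.63 ± 0.10 (adjusted p = 0.000214, edgeR). Of 12 UPR sensors and regulators, Atf4 and Xbp1 were called higher in vehicle than in NTB and lower in BRQ than in vehicle, and Ppp1r15b was also called lower in BRQ. Counting Ern1 below, this made 2 and 4 called genes, 1 to 2 (1 when NTB mouse 2 was dropped) and 3 to 4 with 1 mouse left out, and 0 and 1 after thinning. Ern1, which encodes the sensor IRE1, was called higher in BRQ than in vehicle GMPs (0.58 ± 0.11, adjusted p = 0.000789, edgeR). It was also called higher in monocyte-like cells (0.49 ± 0.12, adjusted p = 0.0197, edgeR), where 2.15% of genes were called higher, and where all 10 chaperones were lower. This call was lost when vehicle mouse 1, vehicle mouse 3 or BRQ mouse 2 was dropped.

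Chaperones outside the ER were counted in the same way. In GMPs 22 of 30 cytosolic and 5 of 12 mitochondrial chaperones (Clpp, Grpel1, Hspa9, Hspd1 and Hspe1) were called higher in vehicle than in NTB, where 6.63% of all genes were. These counts were 15 to 24 and 3 to 5 with 1 mouse left out, and 6 and 2 after thinning. In BRQ against vehicle mice 6 cytosolic chaperones were called lower, among them Hspa1a and Hspa1b, near-identical copies whose counts are uncertain, and 3 mitochondrial ones, Clpp, Hspd1 and Hspe1, where 7.37% of all genes were. They were 3 to 8 and 1 to 3 with 1 mouse left out, and 3 and 0 after thinning. Against NTB mice, 7 cytosolic and 3 mitochondrial chaperones (Hspa9, Hspd1 and Hspe1) were called higher in BRQ GMPs, where 2.56% of all genes were. These counts were 2 to 9 and 2 to 3 with 1 mouse left out, and 1 and 2 after thinning, when none of the other ER folding genes was called. In the main fit none of the other ER folding genes was called higher in BRQ than in NTB GMPs, and 4 (Calr, Fkbp2, Pdia3 and Tapbp) were called lower, where 3.46% were. With 1 mouse left out these were 1 to 5 (1 or 2 when NTB mouse 2 or 3, vehicle mouse 2, or BRQ mouse 1 or 3 was dropped). Hspd1, the mitochondrial Hsp60, had a log2 fold change of 1.05 ± 0.11 (adjusted p = 3.79e-06, edgeR) for vehicle against NTB and 0.76 ± 0.11 (adjusted p = 0.000231, edgeR) for BRQ against NTB. Hspa8, the constitutive cytosolic Hsp70, had 0.72 ± 0.09 (adjusted p = 2.6e-05, edgeR) for vehicle against NTB and -0.62 ± 0.09 (adjusted p = 4.75e-05, edgeR) for BRQ against vehicle. The medians for BRQ against NTB were 0.25 for the cytosolic list, 0.07 for the mitochondrial list and -0.05 for the other ER folding list, beside -0.0029 over all genes tested. Of the other ranges given for 1 mouse left out, falls by over 1.5 times came from dropping NTB mouse 2, NTB mouse 3 or vehicle mouse 1, numbered by pool, and for mitochondrial chaperones lower in BRQ also from dropping vehicle mouse 2, BRQ mouse 1 or BRQ mouse 2.

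In monocyte-like cells fewer listed genes passed. Of 35 other ER folding genes, Hyou1 (0.60 ± 0.12, adjusted p = 0.00966, edgeR) and Pdia3 (0.35 ± 0.09, adjusted p = 0.036, edgeR) were called higher in vehicle than in NTB, and 6 were called lower in BRQ than in vehicle, where 1.64% and 2.84% of all genes were. With 1 mouse left out these counts were 0 to 3 (0 when NTB mouse 2 or 3 was dropped) and 4 to 8. None of 23 degradation genes and 11 UPR genes were called for vehicle against NTB, and 5 degradation genes (Aup1, Edem2, Herpud1, Selenok and Selenos) were called lower in BRQ than in vehicle (0 when vehicle mouse 1 was dropped). Cytosolic chaperones gave 9 of 30 higher for vehicle against NTB and 6 lower for BRQ against vehicle, and 2 to 12 (2 when NTB mouse 2 was dropped) and 3 to 6 (3 when vehicle mouse 1 was) with 1 mouse left out. Mitochondrial chaperones gave Hspa9, Hspd1 and Hspe1 as higher in the first comparison and Hspe1 as lower in the other, and 1 to 3 (1 when NTB mouse 2 was dropped) and 0 to 2 (0 when vehicle mouse 2 or BRQ mouse 2 was) with 1 mouse left out. After thinning, the 2 comparisons gave 0 and 3 other ER folding genes and 0 and 1 degradation genes. Cytosolic chaperones then gave 1 and 2 and mitochondrial ones 1 and 0. For BRQ against NTB, where 1.31% of genes were called higher, 2 cytosolic chaperones, Dnaja1 and Dnaja2, and the mitochondrial Hspd1 were called higher, while 2 other ER folding genes, Calr and Fkbp2, and the degradation gene Ufd1 were called lower, where 1.51% were. With 1 mouse left out these lists had 0 to 4, 0 to 1, 0 to 2 and 0 to 1 called genes, each at 0 when NTB mouse 2 or BRQ mouse 1 was dropped and after thinning. At least 1 of them was also at 0 when any other mouse but vehicle mouse 1 or 3 was dropped.

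The remaining classes were counted likewise. In HSC/MPP-like cells Calr (0.53) and Hsp90aa1 (0.48) were called higher in vehicle than in NTB mice, where 0.751% of all genes were, and Hsp90aa1, Hsph1, Hspd1 and Hspe1 in BRQ than in NTB mice, where 0.441% were. None passed for BRQ against vehicle. Both calls for vehicle against NTB were lost without NTB mouse 2, that of Calr also without vehicle mouse 3 and that of Hsp90aa1 also without vehicle mouse 1, and both after thinning. The 2 cytosolic and 2 mitochondrial genes of BRQ against NTB became 0 to 3 and 0 to 2 with 1 mouse left out, both 0 without NTB mouse 2 or BRQ mouse 1, and fewer also without NTB mouse 1 or 3 or, for the mitochondrial genes, BRQ mouse 3. After thinning they were 0 and 1. In erythroid-like cells 1 listed gene was called in any comparison, Xbp1 (1.35) for vehicle against NTB, with the 1 vehicle mouse. It was lost without NTB mouse 3, without Scrublet-marked cells and after thinning. In neutrophil-like cells the called genes for vehicle against NTB were 4 higher and 2 lower of 28 other ER folding genes, 3 higher of 23 degradation genes, 3 higher of 10 UPR genes, and 1 higher and 1 lower each of 26 cytosolic and 9 mitochondrial chaperones. Over all genes of this class 16.5% were called higher and 13.3% lower, so that the calls among the other ER folding and the degradation genes were no more frequent than over all genes. With 1 mouse left out the counts ran from 3 to 8 for other ER folding, 1 to 3 for degradation, 1 to 5 for UPR genes, 1 to 4 for cytosolic and 0 to 2 for mitochondrial chaperones. Every mouse but BRQ mouse 1 and BRQ mouse 2 moved at least 1 of these counts by over 1.5 times, and each list had 0 calls after thinning. Thinning also left out cells under 3000 UMIs, 748 of 978 vehicle, 626 of 1153 BRQ and 233 of 1257 NTB neutrophil-like cells. There Ddit3, the UPR gene for CHOP, had 2.16 ± 0.36 (adjusted p = 0.000665, edgeR) and Edem2 had 1.89 ± 0.25 (adjusted p = 0.000129, edgeR) for vehicle against NTB, with the same shift between clusters as above. In BRQ against NTB mice, where 11.8% of genes were called higher and 3.97% lower, Ddit3 (1.58 ± 0.35, adjusted p = 0.00728, edgeR), Edem2 (1.18 ± 0.25, adjusted p = 0.00529, edgeR), Qsox1 (0.88 ± 0.25, adjusted p = 0.0287, edgeR) and Ppp1r15a were called higher and the mitochondrial Lonp1 lower. Of these lists, the 2 UPR genes became 1 to 3, the 1 other ER folding gene 0 to 3 and the 1 mitochondrial gene 0 to 1 with 1 mouse left out, with NTB mouse 2 or 3 among the mice whose loss gave the lowest counts. The degradation list had 1 call each time, and each list had 0 after thinning. For BRQ against vehicle none passed.

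**Figure D5:**
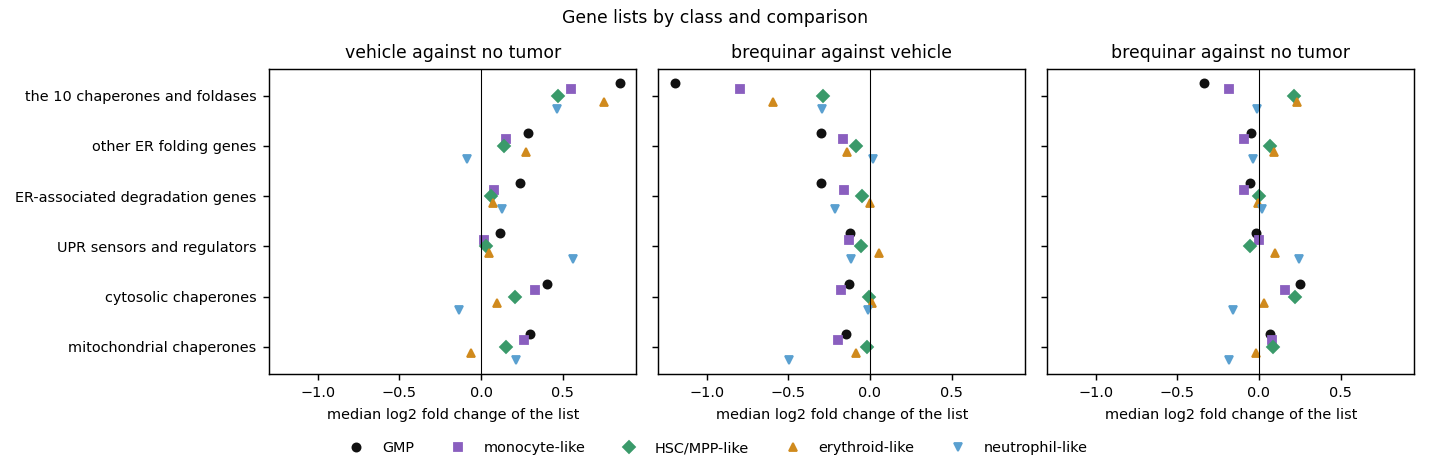
Median log2 fold change of the 10 genes and of 5 other gene lists in each class, for the 3 comparisons. Each point is 1 class. The GMP medians of the 10 genes (0.85 for vehicle against NTB and -1.20 for BRQ against vehicle) follow from how the genes were chosen. The cytosolic chaperones stay above 0 in GMPs for BRQ against NTB (0.25).

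The genes whose pattern over mice was most like the mean of the 10, with the mean of each class subtracted, were Pdia3, Tmed2, Eif5, Ostc, Bola2, Calr, Erp44, Tmem167, Srp9 and Hspa8. Pearson's r over 41 sums of class and mouse ran from 0.911 for Pdia3, a disulfide isomerase for glycoproteins, to 0.765 for Hspa8, among 3487 genes with enough counts in every class. Ostc is a subunit of the complex that adds sugars to new ER proteins, Srp9 belongs to the particle that targets them to the ER, and Tmed2 carries cargo out of it. The sums share libraries and mice and include the GMP sums on which the 10 chaperone genes were chosen, so r is a description and carries no p.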

How the data were processed

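Per the labels, c-Kit-enriched marrow was loaded on the 10x Genomics 3′ v3.1 assay with hashtag antibodies. The authors deposited raw UMI counts of genes and hashtags for each barcode of a pool. The submitters' processing notes name Cell Ranger 6.0.0 and mm10. Barcodes with over 15% mitochondrial UMIs or outside 500 to 7500 detected genes were dropped. The study's wording gives these limits in transcripts, and reading them as UMIs was an alternative. Hashtags were called with HTODemux (Seurat 5.3.0, quantile 0.99). Cells were clustered with scanpy 1.11.5 and leidenalg 0.10.2 (2000 variable genes without the listed folding genes, 30 components, resolution 0.8), and clusters were named by markers. Class names are therefore rebuilt here and may differ from the study's. Likely doublets marked by Scrublet stayed in, except in an alternative.

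Counts were summed per mouse and class (at least 20 cells) and tested with edgeR 4.0.16 (TMM, filterByExpr, two-sided quasi-likelihood test, 1 fit per class, Benjamini-Hochberg adjusted p under 0.05). The CPM of single mice include the TMM factor, while shares and class levels do not. DESeq2 1.42.0, RLE factors, no filter, other cell filters and class rules, thinning, each mouse left out and a pool block were alternatives. The members and lists were chosen with earlier results of these data known, and listed genes were read from the same fits, with calls counted beside those of all genes. Genes named beside the members are up to 3 called genes per list, class and comparison with the largest change and a mean CPM of at least 20, the 10 genes most like the members, and, chosen after their values were seen, the members of small counts. Mice within a pool share a capture per the labels, which pairs them. Centred log2 values correlated with a median r across genes of 0.099 within and -0.037 between pools in GMPs, and of 0.0784 and -0.0331 in monocyte-like cells. Mice are the replicates, so p-values measure the spread between mice. The code was tested on simulated counts. Promoter windows came from RefSeq (GRCm38.p6). R 4.3.3 and Python 3.11.15 were used.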

Additional observations from a re-analysis of the deposited data

Results flagged for a closer look

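The effect of a group differed among cell classes in 3 of the tests on the 10 chaperone genes, all by the interaction term of edgeR's quasi-likelihood test over the 4 classes outside GMPs. For vehicle against NTB these were Hsp90b1 (adjusted p = 0.000168), with log2 fold changes of 0.41 in monocyte-like, 0.24 in HSC/MPP-like, 0.61 in erythroid-like and -0.53 in neutrophil-like cells, and Dnajc3 (adjusted p = 0.0104), with 0.45, 0.27, 0.55 and -0.45. These 2 of 10 genes are near the share of all genes called in that test, 16.4%. For BRQ against vehicle it was Hsp90b1 (adjusted p = 0.0311), with -0.58, -0.21, -0.48 and 0.27, where 0.462% of all genes were called. That call was lost when the NTB or vehicle mouse of pool 2 or 3, or the BRQ mouse of pool 1, was left out, and the Dnajc3 call for vehicle against NTB when the NTB or vehicle mouse of pool 3 was. The erythroid-like vehicle sum in this test was 1 mouse. The neutrophil-like cells of NTB and vehicle mice lay mostly in different clusters, and the part of that shift in these differences was not tested within the interaction. Within cluster 2 alone, Hsp90b1 was at 0.14 for vehicle against NTB and -0.63 for BRQ against vehicle and Dnajc3 at 1.37 for vehicle against NTB, and within cluster 6 alone these values were -0.10, 0.26 and 0.12, none of which passed the test.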

How the results depend on the processing

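In monocyte-like cells 10 of 10 genes were called lower in BRQ than in vehicle mice whichever mouse was left out (10 to 10), and 8 to 10 under the other alternatives. Higher in vehicle than in NTB were 2 to 10 with a mouse left out and 3 after thinning, the lowest without the NTB mouse of pool 2. Over 19 alternatives the medians ran from 0.50 to 0.68 and from -0.85 to -0.69. For BRQ against NTB the count was 0 to 1 with a mouse left out and 0 with DESeq2, no low-count filter, Leiden resolution 1.5, cluster-only classes, thinning or no Scrublet-marked cells. With the pool as replicate block, the pairing changed the count to 2 there, to 5 for vehicle against NTB and 2 for BRQ against NTB in neutrophil-like cells, and to 1 and 1 for vehicle against NTB and BRQ against vehicle in erythroid-like cells, and it changed no other count by over 1.5 times. In HSC/MPP-like cells the 2 genes called for vehicle against NTB became 0 with limits read as UMIs, 0 after thinning, 4 with hashtag ratio calls and 7 at Leiden resolution 1.5, with 0 to 2 leaving out a mouse. The 1 gene called for BRQ against NTB became 0 with DESeq2, limits read as UMIs or thinning and 3 at resolution 1.5, with 0 to 1 leaving out a mouse. Over all genes of HSC/MPP-like cells, 110 of 9981 were called for vehicle against NTB, 96 of 8683 with hashtag ratio calls and 281 of 10414 at resolution 1.5. For BRQ against NTB these were 91 of 9981 and 471 of 10414 at that resolution. In neutrophil-like cells the 3 genes for vehicle against NTB became 5 with RLE factors, 5 at resolution 1.5 and 0 after thinning or in cluster 2 or 6 alone. They ran from 2 (without any 1 NTB mouse) to 5 (without the BRQ mouse of pool 3). Over all genes 1118 of 8809 were called at resolution 1.5. Thinning left out 748 of 978 vehicle cells of this class, so it changed which cells were summed as well as their depth. For BRQ against NTB, 2 passed with limits read as UMIs, 1 with hashtag ratio calls and 1 without Scrublet-marked cells, with 0 to 1 leaving out a mouse (Dnajc3 without the vehicle mouse of pool 1), and for BRQ against vehicle 0 to 1 (Pdia6 without the BRQ mouse of pool 3). In erythroid-like cells the 4 genes became 0 with DESeq2, resolution 1.5, at least 5 cells per mouse, thinning or no Scrublet-marked cells, 1 at an Ms4a3 limit of 2.5, 2 with cluster-only classes and 7 with hashtag ratio calls or no filter, and ran from 0 to 7 leaving out a mouse. For BRQ against vehicle 1 passed without the filter, and 0 to 1 leaving out a mouse (Sdf2l1 without the BRQ mouse of pool 3 or the NTB mouse of pool 2 or 3). Genes unequal among classes numbered 1 to 3 (1 without the NTB or the vehicle mouse of pool 3) for vehicle against NTB and 0 to 5 for BRQ against vehicle, and in the latter 2 with RLE factors and 3 with erythroid-like cells left out. Of 1460 counts of listed genes under the alternatives, 319 moved by over 1.5 times. Among called values and GMP values, signs turned for Fkbp11 in GMPs, BRQ against NTB (-0.049 to 0.16 leaving out a mouse, negative if NTB pool 3 or BRQ pool 2 was dropped, and -0.057 after thinning, beside negative values in each fitted GMP cluster), for Pdia6 there (0.28 with limits read as UMIs, 0.016 at an Ms4a3 limit of 2.5), for Manf in erythroid-like cells, vehicle against NTB (-0.16 without Scrublet-marked cells), and for Hsp90b1 in neutrophil-like cells, vehicle against NTB (0.14 at resolution 1.5 and 0.14 in cluster 2 alone). Outside GMPs 93 of 2202 values of single genes turned their sign, 3 of them called ones, and the others include Hsp90b1 in neutrophil-like cells for BRQ against vehicle (-0.63 in cluster 2 alone), Dnajc3 there for vehicle against NTB (1.37 in cluster 2 and 0.12 in cluster 6 alone) and Pdia6 there for BRQ against NTB (-0.35 in cluster 6 alone). The causes were not tested.

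Limits read as UMIs left too few monocyte-like and erythroid-like cells to be fitted, and erythroid-like cells and the interaction had no vehicle sum without the vehicle mouse of pool 1. The minimum of 5 cells, the test among classes without erythroid-like cells and the fits of single neutrophil-like clusters were chosen after seeing the data. Neutrophil-like cells had medians of 1569 to 6305.5 UMIs per cell, and erythroid-like cells came from 1 vehicle mouse. A gene that missed the threshold is not shown to be equal between groups.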

Other observations

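The sum of the 10 genes was highest, within each group, in a small cluster outside the 5 classes, while not every single gene was. Plasma cell-like cells, secretory cells led by Igkc and Jchain, numbered 56 in NTB, 12 in vehicle and 29 in BRQ mice, and the 10 genes summed to 4694 CPM, 5344 CPM and 5288 CPM in them, with the mice of a group summed. GMPs of cluster 0 were at 3131 CPM in NTB, 5081 CPM in vehicle and 2634 CPM in BRQ mice. In all cells of a pool, whatever their group, Pdia6 read 294.5 to 388.7 CPM in the plasma cell-like cluster and 444.4 to 466.9 CPM in cluster 0. Fkbp11 read 69.01 to 117.6 CPM and 139.1 to 177.1 CPM. The cluster led by the eosinophil genes Prg2 and Epx was at 3341 CPM, 4444 CPM and 4096 CPM. Neutrophil-like cluster 2 was at 391 CPM, 527 CPM and 395 CPM. No mouse gave more than 28 plasma cell-like cells, and these are values of clusters found in the same cells, with no test.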
